A study of Mus musculus with 60 samples.

Results

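The amino acid transporter families examined here are the genes whose symbols begin with Slc1a, Slc3a, Slc6a, Slc7a, Slc36a, Slc38a or Slc43a followed by a number, together with Slc16a10. By symbol alone, 64 of the 18194 genes with a probe set of their own belong to them: 21 of the Slc6a family, 16 of Slc7a, 9 of Slc38a, 7 of Slc1a, 5 of Slc36a, 3 of Slc43a, 2 of Slc3a and Slc16a10. Where a gene has several probe sets, the brightest by mean stands for it. Of the 64, 49 exceeded the 40th percentile of their array on at least 2 arrays and entered the tests, beside 14513 genes in all. The symbols Slc7a6os, Slc36a1os and Slc6a19os also meet the rule, although they name opposite-strand genes and not carriers.

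The cells were primary hepatocytes of male C57BL/6N mice of 8 to 12 weeks, from 1 animal or a pool of up to 3, plated on collagen I and kept without serum, with dexamethasone and glutamine, for 24 h before stimulation. They then received 40 ng/ml recombinant mouse hepatocyte growth factor (HGF), 40 ng/ml recombinant human interleukin 6 (IL-6), both, or nothing, and the study asked how the signals of both factors meet in the hepatocyte. All 4 conditions thus share the strain, the sex, the substrate, dexamethasone and the lack of serum. The 60 Affymetrix arrays form 29 groups: 4 unstimulated arrays at 0 h, and 2 arrays per condition at each of 7 later time points (hours 0.5, 2 and 4, then 8, 16, 24 and 32).

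Amino acids cross the plasma membrane of a hepatocyte through carriers of several families. Slc7a genes encode the cationic amino acid transporters and the light chains of exchangers that work only as a pair with a glycoprotein heavy chain, Slc3a2 or Slc3a1. Slc38a genes encode sodium-coupled carriers of glutamine, alanine and other small neutral amino acids, of which Slc38a3 and Slc38a4 are characteristic of liver. Slc6a genes carry taurine, betaine, creatine, glycine and neurotransmitters with sodium and chloride, and Slc1a genes carry glutamate or small neutral amino acids. Slc36a and some Slc38a proteins reside on lysosomes, where amino acid supply is signalled to the kinase mTORC1. When amino acids run short, the transcription factor ATF4 and its C/EBP partners raise the genes of several carriers through a composite element that reads TGATGNAA.

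The letters TGATGNAA occurred, on either strand, in 3.97% of 32851 promoter windows of the reference (RefSeq, build GRCm38.p6; 250 bases before to 50 after each start site) and in the windows of 4.51% of genes. A window was found for 47 of the 64 genes, 35 of them among the 49 tested, and 4 of the 47 held a match: Slc7a11, Slc1a4, Slc7a7 and Slc6a21. The stretches that hold the matches in Slc7a11, the cystine/glutamate exchanger, Slc1a4, a carrier of alanine, serine and cysteine, and Slc7a7, a light chain that exports cationic amino acids, are shown because the values of these genes are described later. They read 5′ to 3′ on the minus strand, with the matches in capitals.
Slc7a11, chr3:50443614-50443713: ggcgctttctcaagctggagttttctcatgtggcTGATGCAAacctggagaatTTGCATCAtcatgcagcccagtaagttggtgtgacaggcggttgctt
Slc1a4, chr11:20332710-20332813: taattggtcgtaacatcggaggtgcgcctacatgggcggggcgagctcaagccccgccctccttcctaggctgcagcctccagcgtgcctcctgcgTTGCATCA
Slc7a7, chr14:54417938-54418094: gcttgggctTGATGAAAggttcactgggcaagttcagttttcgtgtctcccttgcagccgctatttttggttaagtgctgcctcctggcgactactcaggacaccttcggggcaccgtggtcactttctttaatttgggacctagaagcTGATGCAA
Slc7a11 held 2 matches within 100 bases before its start site, on opposite strands. Slc1a4 held 1, across the start, and Slc7a7 held 2, of which 1 lies across the start. The antioxidant response element TGACNNNGC occurred in the windows of 10 of the 47 genes and in 14.0% of all genes, and the STAT element TTCNNNGAA in 5 of the 47 and in 9.55% of all genes. These are matches of letters, and no binding was measured.

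Values are log2 intensities, so a difference of 1 is a 2-fold difference. Levels of different genes come from different probes and are not compared. Where a difference is given with its hour, that is the hour at which the gene differed most from the reference condition, with its standard error (SE), and the adjusted p (limma, Benjamini-Hochberg over all 14513 genes) belongs to the moderated F-test over the 7 hours from 0.5 to 32 h unless 8 to 32 h is named. Whether paired arrays stem from different animals is not in the labels, so the p-values reflect array-to-array spread that may be technical. Array medians lay between 4.88 and 4.97, and arrays of a group correlated at 0.996 to 0.999. The labelling control dap had a 3′ minus 5′ signal of 1.18 to 1.52 on unstimulated arrays up to 4 h (10 arrays) and of 2.46 to 3.99 on the 50 others, with the highest value on IL-6 at 24 h, replicate 1. Stimulated and unstimulated arrays of 0.5 to 4 h therefore also differ in labelling, which cannot be told apart from the stimulus at those hours. From 8 h on, the hybridisation control bioB lay at 8.13 to 8.4 on unstimulated arrays and at 5.38 to 7.05 on stimulated ones. Its part in the results was not tested.

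The mean over the 9 hepatocyte markers with a probe set lay between 10.04 and 12.63 on every array. Single markers varied more. Over arrays Asgr1 ranged from 4.45, near the filter, to 9.86, Cps1 from 6.81 to 12.2 and Cyp2e1 from 7.61 to 12.15. Apoa1 ranged from 9.61 to 14.09, Fgb from 11.28 to 14.27, Ttr from 12.08 to 14.13 and Hnf4a from 9.06 to 11.16. Apob lay between 12.05 and 13.04 and Alb between 14.15 and 14.44. Marker lists of other cell types had means of 5.44 to 5.97 (Kupffer cells), 5.01 to 5.74 (endothelium), 4.94 to 5.36 (stellate cells), 4.92 to 5.74 (cholangiocytes) and 4.65 to 5.02 (lymphocytes). As each list has its own probes, these levels are not ranked against each other. Single genes lay far from these means. Of the Kupffer list, Cd14 ranged from 8.74 to 11.5 and Cd68 from 6.84 to 9.23 over arrays, while Timd4 and Ptprc did not pass the filter. Of the endothelial list, Lyve1 ranged from 5.04 to 8.55, while Vwf did not pass. The cholangiocyte list reached 5.74 under HGF, 5.55 under IL-6, 5.59 under both and 5.53 in unstimulated cells. Of its genes, Krt19 ranged from 6.46 to 9.72 and Sox9 from 6.43 to 8.51 over arrays. The part of these markers in the results on carriers was not tested. In these bulk cultures fewer cells of a type and less RNA per cell cannot be told apart.

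HGF raised a set of Slc7a carriers, which stood furthest above unstimulated cells at 16 h. Slc7a5 (the light chain of LAT1, an exchanger of large neutral amino acids) rose 2.73-fold, Slc7a11 2.58-fold, Slc7a1 (the arginine and lysine carrier CAT1) 2.46-fold and Slc7a6 (a light chain that exchanges cationic for neutral amino acids) 2.06-fold. At the same time the betaine carrier Slc6a12, the GABA and taurine carrier Slc6a13 and the liver glutamine carrier Slc38a3 fell. Of the 49 genes tested, 30 differed from unstimulated cells, 17 higher and 13 lower, against 62.6% of all genes (29.8% higher and 32.8% lower). From 8 to 32 h, 28 differed, 17 higher and 11 lower, against 55.1% of all genes (27.2% higher and 27.9% lower). The families as a whole were therefore called about as often as any genes, and their median absolute difference at the peak hour, 0.36, lay beside 0.33 for all genes. At least 2-fold at the peak hour were 4 of the 49, all higher, and 3.58% of all genes.

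**Figure D1:**
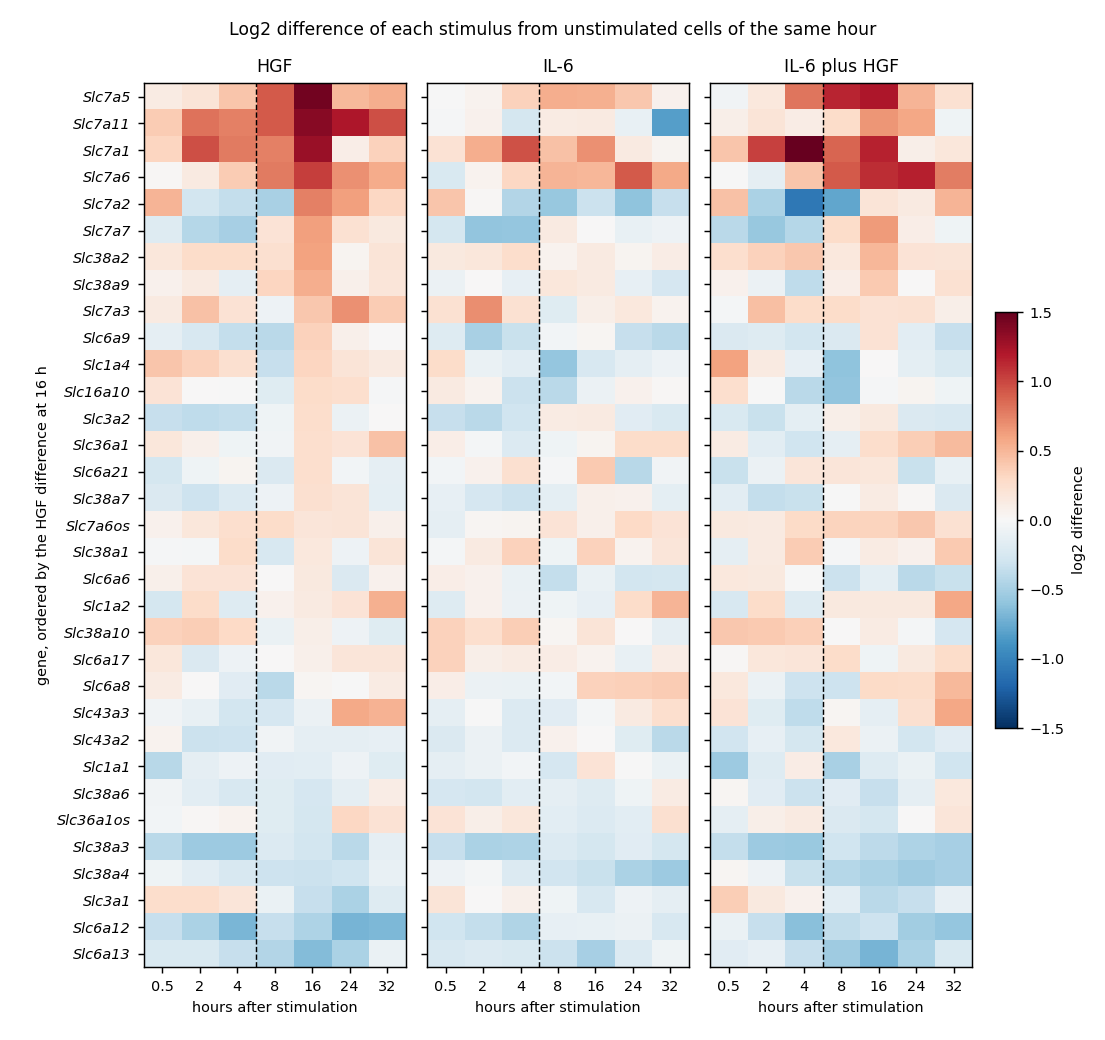
Log2 difference of HGF (left), IL-6 (middle) and their combination (right) from unstimulated cells of the same hour, for the 33 genes called under at least 1 stimulus over 8 to 32 h, ordered by the HGF difference at 16 h. Red is higher, blue is lower, and columns left of the dashed line (0.5 to 4 h) cross the labelling difference. Slc7a5 (1.45) and Slc7a11 (1.37) are darkest under HGF at 16 h, Slc7a1 (1.50) under the combination at 4 h and Slc7a6 (1.17) under the combination at 24 h, while Slc7a2 is lowest under the combination at 4 h (-1.07).

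The counts of the families are given side by side, by the sign at the peak hour. Under HGF, 8 of the 12 Slc7a genes tested rose, 1 fell and 3 did not pass, with a median peak difference of 0.65. This count includes Slc7a6os. At the later hours again 8 rose and none fell, beside 27.2% of all genes that rose. By the sign at the peak hour none of the 12 Slc6a genes rose, 5 fell and 7 did not pass, with a median of -0.26. At another hour, 16 h, Slc6a9 was 0.35 higher. Of the 8 Slc38a genes 3 rose and 4 fell, and of the 6 Slc1a genes 2 rose. These counts stand beside 29.8% of all genes that rose and 32.8% that fell from 0.5 to 32 h. No test compared the families with each other.

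Slc7a5 had values of 7.57, 7.44, 7.56 and 7.37 on the 4 arrays at 0 h. At 16 h it read 7.89 and 7.73 in unstimulated cells, 9.26 and 9.26 under HGF, 8.53 and 8.15 under IL-6, and 9.0 and 9.04 under both. The 4 conditions did not overlap, with HGF highest and unstimulated cells lowest. The HGF difference was 0.42 at 4 h and 0.92 at 8 h. Between these hours the HGF mean went from 8.04 to 8.12, while the mean of unstimulated cells changed by -0.41. Unstimulated arrays also change in labelling between 4 and 8 h, and the part of this was not tested. The difference was 1.45 at 16 h (SE 0.08, adjusted p = 4.63e-22), and had shrunk to 0.49 at 24 h and 0.55 at 32 h. The level under HGF was still high at those hours: unstimulated cells had risen to 8.69 and 8.74 by 24 h.

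Slc7a1 read 8.54 and 8.52 in unstimulated cells at 16 h and 9.74 and 9.92 under HGF. Its HGF difference had a first peak of 0.97 at 2 h, stood at 0.76 at 8 h and reached 1.3 at 16 h (SE 0.09, adjusted p = 5.53e-21). By 24 h the arrays of all conditions lay between 9.75 and 10.05, and the HGF difference was 0.10. At 32 h the HGF arrays read 9.96 and 10.0 against 9.62 and 9.64 in unstimulated cells, a difference of 0.35 (adjusted p at that hour alone 0.00176).

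Slc7a11 imports cystine for glutathione synthesis. At 16 h it read 7.97 and 8.39 in unstimulated cells and 9.55 and 9.54 under HGF, a difference of 1.37 (SE 0.18, adjusted p = 3.23e-13). This difference was 0.81 at 2 h, 1.21 at 24 h and 0.97 at 32 h, when unstimulated cells read 8.69 and 8.78 and HGF cells 9.73 and 9.67. A second probe set of the gene gave 0.94 at 16 h.

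Slc7a6 read 6.72 and 6.61 without a stimulus at 16 h and 7.67 and 7.75 under HGF (1.04, SE 0.12, adjusted p = 1.33e-12). Slc7a2, the CAT2 carrier that brings arginine into liver cells, changed sign with time. It read 8.04 and 8.03 in unstimulated cells at 8 h against 7.49 and 7.60 under HGF, and 8.13 and 8.01 at 16 h against 8.84 and 8.80. The difference was thus -0.49 at 8 h and 0.75 at 16 h (SE 0.08, adjusted p = 7.71e-15), with no overlap at either hour. Slc7a7 rose by 0.61 at 16 h (SE 0.09, adjusted p = 2.04e-09), from 6.28 and 6.21 to 6.88 and 6.83. Slc7a3, the CAT3 carrier, was dim and rose by 0.69 at 24 h (SE 0.16, adjusted p = 0.000243), from 4.89 and 4.90 to 5.77 and 5.39. Slc7a4 was 0.36 lower at 4 h (adjusted p = 0.0179), a call that was lost without unstimulated replicate 2 (-0.32, adjusted p = 0.0552) or HGF replicate 2 (-0.28, adjusted p = 0.0675) of that hour.

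The heavy chains changed less than these light chains. Slc3a2, the partner of Slc7a5, Slc7a6, Slc7a7 and Slc7a11 at the membrane, read 11.44 and 11.48 in unstimulated cells at 2 h and 11.11 and 11.05 under HGF, a fall of 0.38 (SE 0.06, adjusted p = 8.47e-11). At 16 h it read 10.89 and 10.82 against 11.11 and 11.13, a difference of 0.26. The early values cross the labelling difference; the step of unstimulated cells from 4 to 8 h beyond that of stimulated cells was -0.32 for Slc3a2, against a median size of 0.15 over all genes. Slc3a1, the other heavy chain, fell by 0.48 at 24 h (SE 0.09, adjusted p = 2.27e-06), from 5.74 and 5.86 to 5.49 and 5.15.

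**Figure D2:**
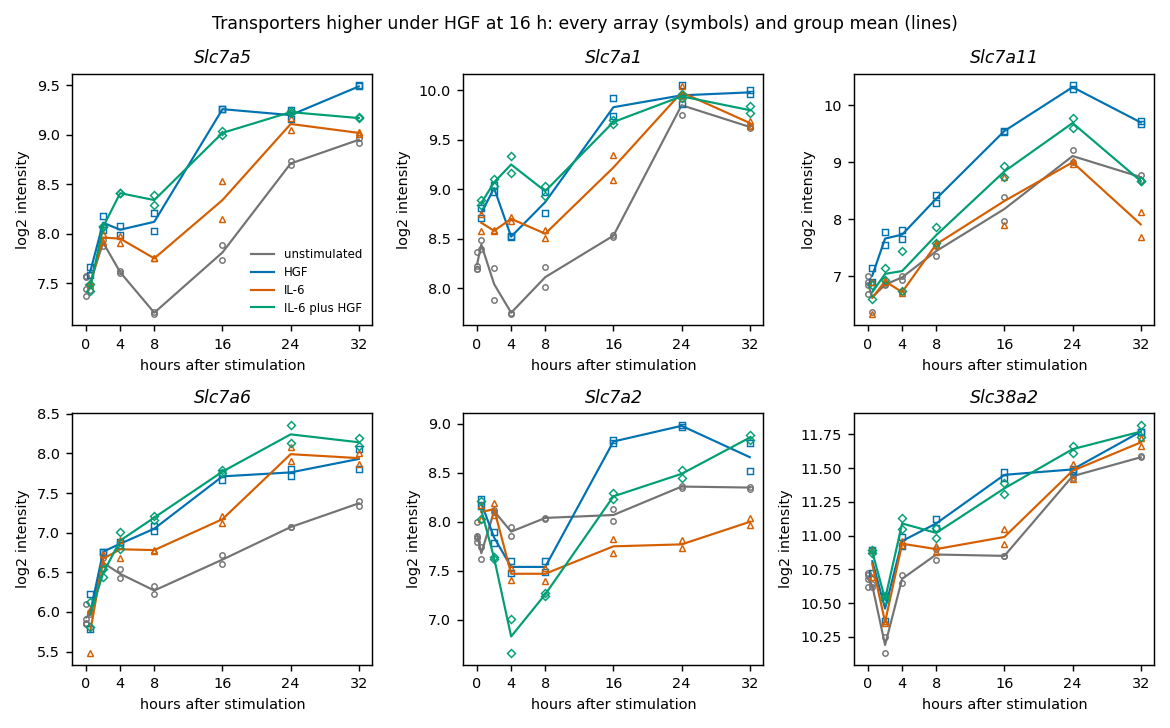
Log2 intensity of 6 carriers over hours after stimulation, with a symbol for each array and a line through the group means, for unstimulated cells (grey), HGF (blue), IL-6 (orange) and both (green). At 16 h both HGF arrays of each gene lie above both unstimulated arrays, and Slc7a1 converges near 9.75 to 10.05 in all conditions at 24 h.

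Among carriers of small neutral amino acids, Slc38a2, the system A carrier SNAT2, rose from 10.85 and 10.85 to 11.47 and 11.43 at 16 h of HGF (0.60, SE 0.06, adjusted p = 1.85e-13). Its other probe sets gave 0.20 and -0.01 at that hour. Slc38a9, a lysosomal arginine sensor, rose by 0.54 at 16 h (SE 0.10, adjusted p = 4.89e-05), from 6.71 and 7.07 to 7.51 and 7.34. The lysosomal proton-coupled carrier Slc36a1 read 7.59 and 7.59 at 32 h without a stimulus and 8.02 and 8.04 with HGF (0.44, SE 0.07, adjusted p = 2.38e-06). Slc43a3 rose by 0.57 at 24 h (SE 0.15, adjusted p = 0.000676) and Slc16a10, a carrier of aromatic amino acids, by 0.28 at 16 h (adjusted p = 1.18e-06). The 3 other probe sets of Slc16a10 gave -0.05, -0.21 and -0.05 at that hour. Slc1a4 was 0.42 higher at 0.5 h (adjusted p = 8.78e-07) by its brightest probe set, where its 2 others gave -0.18 and -0.29. The dim glutamate carrier Slc1a2 rose by 0.53 at 32 h (SE 0.15, adjusted p = 0.0131), where its other probe sets gave -0.04, 0.03, 0.33 and 0.30.

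The liver carriers of glutamine and alanine went down under HGF. Slc38a3 read 10.51 and 10.41 in unstimulated cells at 4 h and 9.95 and 9.87 under HGF, a fall of 0.55 (SE 0.06, adjusted p = 1.9e-16). That hour crosses the labelling difference, and the excess step of the gene was -0.28. At 24 h, within one labelling class, it read 9.44 and 9.46 against 9.02 and 9.06, a difference of -0.41. Slc38a4 fell by 0.32 at 16 h (SE 0.05, adjusted p = 8.11e-11). All HGF arrays of these hours lay below the unstimulated arrays.

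Carriers of the Slc6a family had falls too. Slc6a12 read 5.65 and 5.74 in unstimulated cells at 24 h and 4.82 and 5.17 under HGF, a fall of 0.70 (SE 0.14, adjusted p = 1.99e-09). Slc6a13 read 9.07 and 9.02 at 16 h against 8.43 and 8.37, a fall of 0.65 (SE 0.07, adjusted p = 1.43e-14). The glycine carrier Slc6a9 was 0.41 lower at 8 h (SE 0.10, adjusted p = 1.38e-05) but 0.35 higher at 16 h, with 9.23 and 9.15 against 8.85 and 8.83 in unstimulated cells. Its other probe set gave -0.01 at 8 h. The taurine carrier Slc6a6, whose values were near 11.7 at 8 h in both conditions, was 0.21 higher at 2 h and 0.22 lower at 24 h (adjusted p over that hour alone 0.00135 and 0.000584). The creatine carrier Slc6a8 fell by 0.40 at 8 h, where its other probe set gave 0.22.

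**Figure D3:**
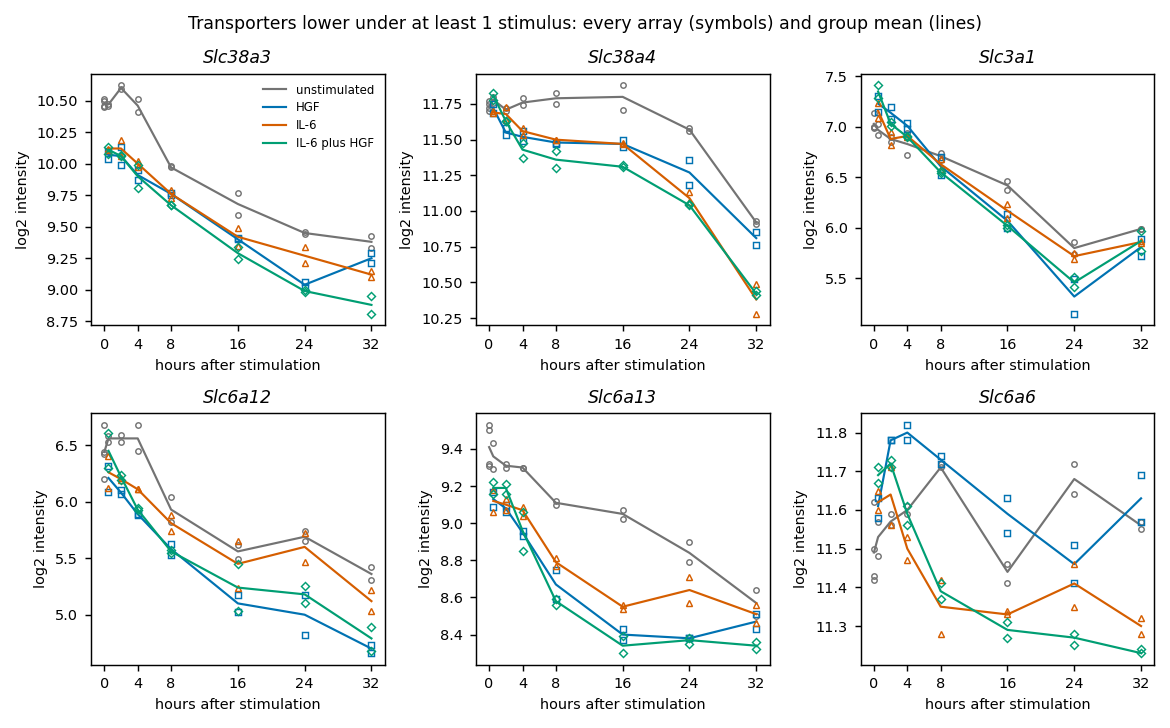
Log2 intensity of 6 carriers that were lower under at least 1 stimulus, over hours after stimulation, with a symbol for each array and a line through the group means, coloured by condition. Slc38a3 and Slc38a4 decline in every condition; Slc6a6 separates by IL-6, with IL-6 and combination arrays at 11.28 to 11.42 at 8 h and the others at 11.71 to 11.74.

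Under IL-6 Slc7a1, Slc7a6 and Slc7a5 rose, while Slc7a2, Slc38a4, Slc16a10 and Slc6a6 fell. Slc7a11 was called lower by its value at 32 h, a call lost when single arrays of that hour were left out. No gene of the families changed 2-fold at its peak hour, where 2.60% of all genes did. Of the 49 genes, 26 differed from unstimulated cells, 11 higher and 15 lower, against 55.1% of all genes (23.4% higher and 31.7% lower). Over 8 to 32 h, 20 differed, 8 higher and 12 lower, against 42% of all genes. In the Slc7a family 4 of 12 rose over those hours (Slc7a1, Slc7a5, Slc7a6 and Slc7a6os), 2 fell and 6 did not pass. Of all genes 18.7% rose and 23.3% fell over the same hours.

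Slc7a1 read 7.74 and 7.75 in unstimulated cells at 4 h and 8.72 and 8.68 under IL-6, a difference of 0.95 (SE 0.09, adjusted p = 3.9e-15). That hour crosses the labelling difference, and the excess step was 0.39. At 16 h, with no such difference, unstimulated arrays read 8.54 and 8.52 and IL-6 arrays 9.35 and 9.09, a difference of 0.69. Slc7a6 rose by 0.92 at 24 h (SE 0.12, adjusted p = 5.98e-10), from 7.07 and 7.07 to 7.91 and 8.08. Slc7a5 rose by 0.55 at 8 h (SE 0.08, adjusted p = 5.7e-11), from 7.19 and 7.21 to 7.75 and 7.75. Slc6a8 rose by 0.38 at 32 h (SE 0.08, adjusted p = 2.29e-06), where its other probe set gave 0.06. Slc7a3 was 0.70 higher at 2 h (adjusted p = 0.00791), which was lost without unstimulated replicate 1 (0.66, adjusted p = 0.0593) or IL-6 replicate 2 (0.66, adjusted p = 0.0572) of that hour.

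Slc7a2 fell by 0.60 at 24 h (SE 0.08, adjusted p = 2.06e-12): it read 8.37 and 8.35 in unstimulated cells and 7.81 and 7.73 under IL-6. Slc38a4 fell by 0.54 at 32 h (SE 0.05, adjusted p = 2.95e-15), from 10.93 and 10.91 to 10.49 and 10.28. The neutral carrier Slc1a4 read 8.89 and 9.09 at 8 h against 8.49 and 8.32, a fall of 0.58 (SE 0.10, adjusted p = 6.8e-06), and its other probe sets gave -0.36 and -0.46. Slc16a10 fell by 0.41 at 8 h (adjusted p = 2.75e-08) and Slc6a13 by 0.50 at 16 h (adjusted p = 7.29e-10). Slc6a6 read 11.71 and 11.72 at 8 h against 11.42 and 11.28, a fall of 0.36 (adjusted p = 1.56e-09). In each of these the IL-6 arrays lay below both unstimulated arrays.

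Several early differences under IL-6 cross the labelling difference. Slc7a7 was 0.59 lower at 2 h (adjusted p = 4.87e-08), with an excess step of -0.71 that lies beyond the 95th percentile of all genes (0.50), as in no other of the 49. Slc38a3 was 0.48 lower at 2 h (adjusted p = 6.74e-14) and 0.26 lower at 16 h, Slc6a9 was 0.49 lower at 2 h (adjusted p = 7.93e-07) and Slc6a12 was 0.45 lower at 4 h (adjusted p = 0.00522).

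Slc7a11 stood within 0.26 of its unstimulated level under IL-6 up to 24 h and 0.83 below it at 32 h (SE 0.18, adjusted p = 0.0109), with 8.13 and 7.69 against 8.69 and 8.78. This call was lost without unstimulated replicate 2 of 32 h (-0.78, adjusted p = 0.0896), without IL-6 replicate 2 of 32 h (-0.61, adjusted p = 0.226) and with a robust variance estimate (adjusted p = 0.0565). Slc38a10 was 0.37 higher at 4 h by its brightest probe set, but -0.05 as the mean over its probe sets, so no direction is given for it. Slc38a1 was 0.34 higher at 16 h (adjusted p = 0.0243). That call ended without any of 4 arrays, down to 0.16 without IL-6 replicate 1 of 16 h (adjusted p = 0.104).

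The contrast of IL-6 with HGF does not use the unstimulated arrays and does not cross the labelling difference, apart from IL-6 replicate 1 at 24 h. The Slc7a carriers were lower under IL-6, above all Slc7a11 and Slc7a2, and a few Slc6a carriers and Slc3a1 were higher. Of the 49 genes, 27 passed the test, 9 with more signal under IL-6 and 18 with less, against 51.2% of all genes (22.3% higher and 28.9% lower). Restricted to 8 to 32 h, 24 differed, 7 higher and 17 lower, against 50.1% (22.4% higher and 27.7% lower). Of the 12 Slc7a genes none was higher, 8 were lower and 4 did not pass, with a median peak difference of -0.53. The hybridisation control bioB differed between both conditions at some of these hours. It read 6.14 and 6.32 under HGF against 7.05 and 7.05 under IL-6 at 8 h, 6.23 and 6.06 against 5.51 and 5.92 at 16 h, 6.08 and 5.94 against 6.03 and 5.93 at 24 h, and 6.98 and 6.94 against 5.72 and 5.65 at 32 h. Only the values at 24 h overlap, and the part of this control in the differences was not tested.

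Slc7a11 read 9.73 and 9.67 under HGF at 32 h and 8.13 and 7.69 under IL-6, a difference of -1.79 (SE 0.18, adjusted p = 3.13e-15) or 3.47-fold. A second probe set gave -1.49. The gap was already -1.01 at 4 h and stayed between -0.80 and -1.79 from then on. Slc7a2 read 8.97 and 8.99 under HGF at 24 h and 7.81 and 7.73 under IL-6 (-1.21, SE 0.08, adjusted p = 3.1e-19; -1.25 without IL-6 replicate 1). Both conditions were alike at 8 h (-0.08), and they parted from 16 h on (-1.07). The 3 other probe sets of Slc7a2 gave -1.62, -1.27 and -0.16 at 24 h.

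Further down, Slc7a5 differed by -0.92 at 16 h (SE 0.08, adjusted p = 1.87e-13). Slc7a1 (adjusted p = 6.21e-09) and Slc7a7 (adjusted p = 2.26e-06) differed by -0.61 each and Slc7a6 by -0.54 (adjusted p = 0.00147) at that hour. Slc1a4 read 9.50 and 9.56 under HGF at 16 h and 9.11 and 8.82 under IL-6 (-0.57, adjusted p = 1.73e-08). Slc38a2 differed by -0.45 at 16 h (adjusted p = 1.41e-07), where its other probe sets gave -0.05 and -0.16. Slc6a6 differed by -0.38 at 8 h (adjusted p = 1.56e-11). Slc38a9, which showed no call under IL-6 against unstimulated cells, differed by -0.44 at 32 h (adjusted p = 0.000117).

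Slc6a12 was higher under IL-6, with 5.72 and 5.47 at 24 h against 4.82 and 5.17 under HGF (0.60, SE 0.14, adjusted p = 0.000245; 0.48 without IL-6 replicate 1). Slc6a8 read 8.19 and 8.19 against 7.89 and 7.75 (0.37, adjusted p = 1.47e-06), where its other probe set gave -0.04. Slc3a1 was 0.40 higher at 24 h (adjusted p = 0.0042), but 0.23 without HGF replicate 2 (adjusted p = 0.0658). Slc6a13 was 0.26 higher at 24 h, but 0.20 without IL-6 replicate 1 (adjusted p = 0.056). Slc38a3 was 0.24 higher at 24 h, a call lost without HGF replicate 1 (0.22, adjusted p = 0.0594) or IL-6 replicate 2 (0.17, adjusted p = 0.112) and as the mean over probe sets (0.11, adjusted p = 0.396). Slc7a3 was 0.52 lower at 24 h, a call lost without HGF replicate 1 (-0.33, adjusted p = 0.115) or IL-6 replicate 1 (-0.38, adjusted p = 0.106).

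**Figure D4:**
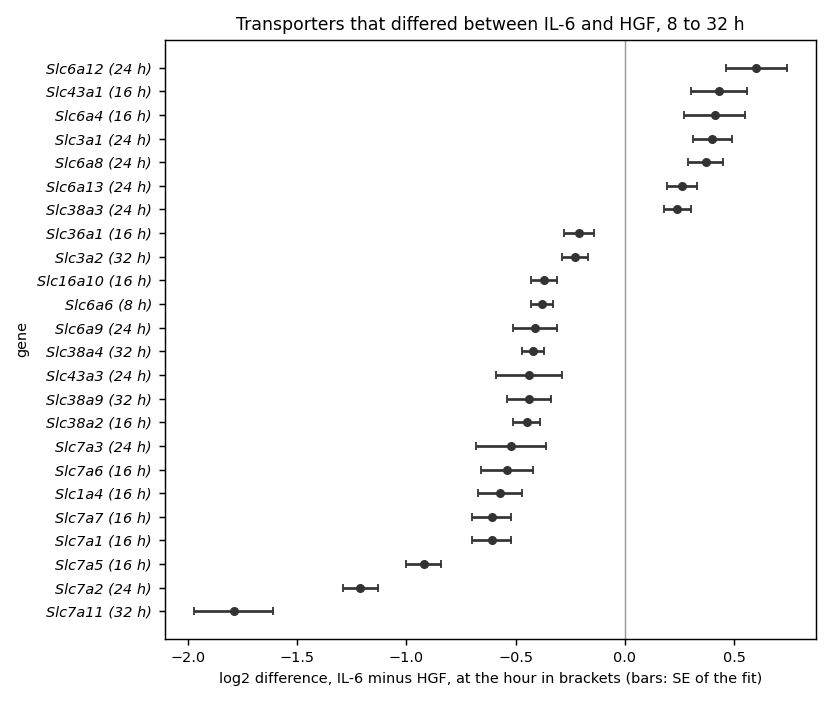
Log2 difference, IL-6 minus HGF, for the 24 genes called over 8 to 32 h, each at the hour of its largest difference in that span (in brackets); points are differences of group means (2 arrays each) and bars are the SE of the fit. Slc7a11 (-1.79) and Slc7a2 (-1.21) lie lowest, and 7 genes lie above 0.

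The HGF and IL-6 contrasts with unstimulated cells share the unstimulated arrays, so their values are given side by side. Over 8 to 32 h, Slc1a2, Slc36a1, Slc7a1, Slc7a5, Slc7a6 and Slc7a6os were higher under each stimulus, and Slc38a3, Slc38a4 and Slc6a13 were lower under each, at the peak hour of each contrast. For Slc1a2 this rests on its brightest probe set, and its others gave -0.15 to 0.16 under IL-6 at 32 h. Slc1a4, Slc6a6 and Slc6a9 were also lower under each at their peak hours, but HGF had hours of the opposite sign: Slc1a4 stood at -0.34 at 8 h and 0.32 at 16 h, Slc6a9 at -0.41 and 0.35, and Slc6a6 at 0.15 at 16 h and -0.22 at 24 h. Slc16a10, Slc3a2, Slc7a11 and Slc7a2 were higher under HGF and lower under IL-6, each at its own peak hour. For Slc7a11 the fall under IL-6 rests on 32 h, and its call over 0.5 to 32 h was lost without single arrays. For Slc3a2 the peak hours differ. It stood at 0.26 under HGF and 0.14 under IL-6 at 16 h, and at -0.09 and -0.17 at 24 h. At 8 h Slc16a10 (-0.18 under HGF and -0.41 under IL-6) and Slc7a2 (-0.49 and -0.57) were lower under each. Slc6a8 was lower under HGF and higher under IL-6 by its brightest probe set, and Slc38a10, called under both, is left without a direction as above. Neither stimulus nor their combination moved 16 of the 49 past the threshold over those hours, among them Slc1a5 (the glutamine carrier ASCT2), Slc43a1, Slc36a4 and Slc6a19. The share of all genes called under none of them was not counted, so this number is not read as a trait of the families.

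Under IL-6 and HGF together Slc7a5, Slc7a1 and Slc7a6 stood 1.21, 1.15 and 1.11 above unstimulated cells at 16 h. At 24 h these differences were 0.51, 0.09 and 1.17. Slc7a11 from 2 h on, and Slc7a2 at 4 to 24 h, stood lower than under HGF alone. Against unstimulated cells 31 of the 49 genes differed, 17 higher and 14 lower, against 68% of all genes (31.3% higher and 36.7% lower). From 8 h on 28 differed, 14 in each direction, against 57.2% (28.5% higher and 28.7% lower). Slc7a1 read 7.74 and 7.75 in unstimulated cells at 4 h, 8.52 and 8.53 under HGF, 8.72 and 8.68 under IL-6, and 9.34 and 9.16 under both. The combination was 1.50 above unstimulated cells (SE 0.09, adjusted p = 5.49e-24), or 2.83-fold, and above every array of the single stimuli. Against unstimulated cells this hour crosses the labelling difference, whose part was not tested, and the gene's excess step was 0.39.

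Slc7a5 rose by 1.21 at 16 h under both factors (adjusted p = 1.92e-22) and Slc7a6 by 1.17 at 24 h (adjusted p = 3.5e-16). Slc7a7 rose by 0.64 at 16 h (adjusted p = 8.28e-11), Slc38a2 by 0.50 at 16 h (adjusted p = 2.25e-14) and Slc6a8 by 0.49 at 32 h (adjusted p = 1.04e-08). Other probe sets of Slc38a2 gave 0.17 and -0.06 at 16 h. Slc36a1 rose by 0.47 at 32 h (adjusted p = 2.84e-09). Slc1a2 rose by 0.58 at 32 h (adjusted p = 0.00747), but 0.44 without combination replicate 1 (adjusted p = 0.0687). Its other probe sets gave -0.05 to 0.13 at that hour, and the call was lost as the mean over probe sets (0.15, adjusted p = 0.137).

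Slc7a2 had its lowest value under both factors: 6.66 and 7.01 at 4 h, against 7.95 and 7.86 in unstimulated cells, 7.60 and 7.48 under HGF and 7.53 and 7.41 under IL-6. The fall of 1.07 (SE 0.08, adjusted p = 9.19e-18) lay beyond both single stimuli. Against unstimulated cells this hour crosses the labelling difference, whose part was not tested; the gene's excess step was -0.01. By 32 h the order had turned, with 8.84 and 8.89 under both factors against 8.34 and 8.36 in unstimulated cells and 8.52 and 8.80 under HGF (0.21 above HGF, adjusted p at that hour alone 0.078). Slc6a13 fell by 0.70 at 16 h (adjusted p = 9.47e-16), Slc16a10 by 0.59 at 8 h (adjusted p = 8.31e-13), Slc38a4 by 0.53 at 24 h (adjusted p = 3.04e-18) and Slc6a6 by 0.41 at 24 h (adjusted p = 2.37e-12). Slc38a3 fell by 0.56 at 4 h (adjusted p = 5.43e-19) and was still 0.50 lower at 32 h, with 8.95 and 8.81 against 9.43 and 9.33.

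Set directly against HGF alone, the combination differed in 18 of the 49 genes, 7 higher and 11 lower, against 41.6% of all genes (17.7% higher and 23.9% lower). Over 8 to 32 h it differed in 15, 4 higher and 11 lower, against 37% (17.6% higher and 19.3% lower). Slc7a11 was lower by 1.03 at 32 h (SE 0.18, adjusted p = 3.23e-08), with 8.67 and 8.68 against 9.73 and 9.67, and it was between 0.62 and 1.03 lower at every hour from 2 h on. Slc7a2 was lower by 0.71 at 4 h (adjusted p = 7.89e-12), Slc16a10 by 0.41 at 8 h (adjusted p = 1.62e-10) and Slc6a6 by 0.40 at 32 h (adjusted p = 1.18e-11). Slc7a1 was higher by 0.72 at 4 h (adjusted p = 3.27e-07). Slc7a6 was 0.48 higher at 24 h (adjusted p = 0.0123), a call lost without HGF replicate 2 (0.44, adjusted p = 0.0621) or combination replicate 2 (0.37, adjusted p = 0.105).

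Against IL-6 alone, the combination differed in 22 genes, 14 higher and 8 lower, against 44.1% of all genes (23.2% higher and 20.9% lower). Over 8 to 32 h it differed in 18, against 34.6%. Slc7a2 was higher by 0.86 at 32 h (adjusted p = 6.05e-16), Slc7a11 by 0.77 at 32 h (adjusted p = 0.000158) and Slc7a5 by 0.68 at 16 h (adjusted p = 6.37e-12). Slc7a7 was higher by 0.65 at 16 h (adjusted p = 1.23e-05), Slc7a6 by 0.60 at 16 h (adjusted p = 8.79e-05) and Slc7a1 by 0.55 at 4 h (adjusted p = 5.79e-10). The mean values of Slc7a11 and Slc7a2 under both factors lay between those of the single stimuli at 16 and 24 h.

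Slc7a1, Slc7a5, Slc7a6 and Slc7a11 reached less under both factors at 16 h than the sum of the single log2 differences. The interaction is what the combination shows beyond the sum of the differences under HGF and under IL-6. It was called for 18 of the 49 genes, 9 above and 9 below 0, against 33.6% of all genes (18.9% above and 14.6% below). Over 8 to 32 h it was called for 12, 4 above and 8 below 0, against 19.7% of all genes (11.4% above and 8.28% below). Unstimulated arrays enter the interaction at every hour, and from 8 h on their bioB control differs from that of stimulated arrays. The part of this was not tested. At 16 h Slc7a1 had 1.3 from HGF and 0.69 from IL-6, a sum of 1.99, and 1.15 under both (interaction -0.84, adjusted p = 1e-06). Slc7a5 had a sum of 1.98 and 1.21 under both (-0.77, adjusted p = 4.31e-07). Slc7a11 had a sum of 1.51 and 0.66 under both (-0.85, adjusted p = 0.00227).

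Falls were also smaller than the sum in several carriers. Slc6a13 had a sum of -1.15 at 16 h and -0.70 under both (0.44, adjusted p = 2.4e-05), and Slc38a4 a sum of -0.65 and -0.48 under both at that hour. Slc7a7 came close to its sum at 16 h, with 0.61 and 0.64. Slc3a2 had an interaction of 0.51 at 4 h (adjusted p = 2.53e-08), where unstimulated arrays differ in labelling. Slc7a2 had 0.55 at 32 h (adjusted p = 2.89e-05), which was 0.40 and not called as the mean over probe sets (adjusted p = 0.0971). Slc1a5 had 0.86 at 24 h (adjusted p = 0.0221), a call lost without any of 4 arrays (0.68 without combination replicate 2, adjusted p = 0.119).

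**Figure D5:**
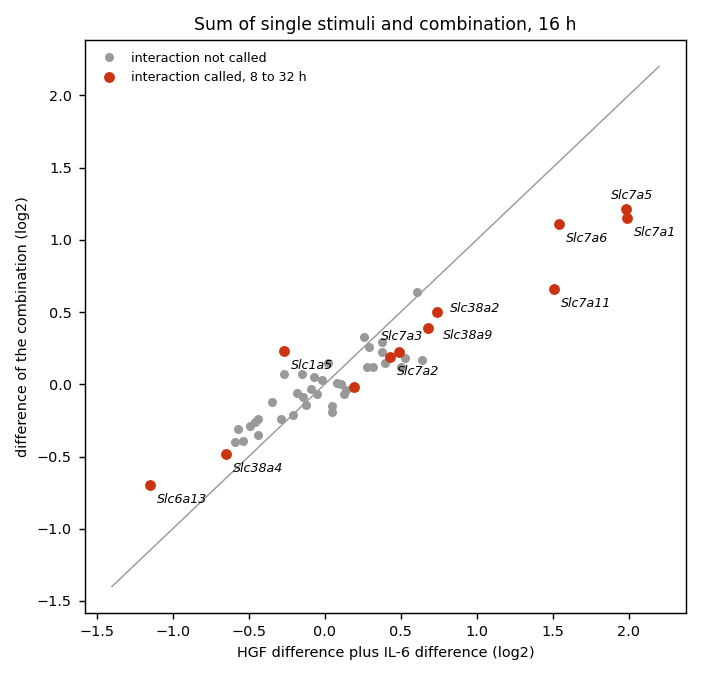
Log2 difference from unstimulated cells at 16 h under IL-6 plus HGF (vertical axis) against the sum of the differences under HGF and under IL-6 (horizontal axis), for the 49 genes tested; the line marks equal values and red points are genes whose interaction was called over 8 to 32 h. Slc7a1, Slc7a5, Slc7a6 and Slc7a11 lie below the line at sums of 1.51 to 1.99, and Slc6a13 lies above it at -1.15.

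The same carriers changed with time in culture without any stimulus. Of the 49 genes 34 differed from 0 h, 19 higher and 15 lower, against 75% of all genes (40.4% higher and 34.6% lower). Slc7a11 rose 4.75-fold: its 4 arrays at 0 h read 6.69 to 7.01, and those at 24 h 9.21 and 9.01 (2.25, SE 0.16, adjusted p = 2.1e-19). Its second probe set gave 1.41 at that hour. Slc7a1 rose by 1.61 at 24 h (adjusted p = 1.15e-27), Slc7a5 by 1.46 at 32 h (adjusted p = 3.13e-26), Slc7a6 by 1.44 at 32 h (adjusted p = 2.09e-16) and Slc1a4 by 1.38 at 32 h (adjusted p = 1.43e-22). Other probe sets gave 1.34 and -0.22 for Slc7a1, 1.27 for Slc7a6, and 0.27 and 0.75 for Slc1a4 at these hours. Slc3a1 fell by 1.23 at 24 h (adjusted p = 1.03e-18), Slc38a3 by 1.10 at 32 h (adjusted p = 1.42e-27) and Slc6a12 by 1.07 at 32 h (adjusted p = 7.85e-14). The other probe set of Slc38a3 gave -0.09 at 32 h.

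Unstimulated arrays changed labelling class between 4 and 8 h. Within the later class, 32 of the 49 genes differed from 8 h at 16, 24 or 32 h, 17 higher and 15 lower, against 65.7% of all genes (36.1% higher and 29.5% lower). Slc7a1 rose by 1.74 at 24 h (adjusted p = 1.46e-23), Slc7a5 by 1.74 at 32 h (adjusted p = 1.05e-24), Slc7a11 by 1.67 at 24 h (adjusted p = 2.23e-10) and Slc7a6 by 1.10 at 32 h (adjusted p = 3.3e-10). Slc3a1 fell by 0.90 at 24 h (adjusted p = 2.09e-11), Slc38a4 by 0.87 at 32 h (adjusted p = 8.45e-20) and Slc38a3 by 0.59 at 32 h (adjusted p = 5.02e-12). The rises of Slc7a5, Slc7a6 and Slc7a11 over unstimulated cells at 16 h under HGF thus came on top of a rise in unstimulated cells.

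The 15 genes under the filter had means of 2.28 to 3.95 and no array above 4.59. They were Slc1a6, Slc38a5, Slc6a3, Slc6a5, Slc6a11, Slc6a14, Slc6a15, Slc6a16, Slc6a18, Slc6a20a, Slc6a20b, Slc7a8, Slc7a9, Slc7a12 and Slc7a14. Slc7a9 is the usual light chain of Slc3a1, and Slc7a8 encodes the LAT2 light chain. Of the 49 tested genes 43 exceeded the percentile on every array and 6 on some. Of the tested genes, 15 were called under no stimulus from 0.5 to 32 h, among them Slc1a3, Slc1a5, Slc6a19 and Slc7a10. Here too the share of all genes was not counted.

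Genes that neighbour transport in the pathway moved as follows, by lists written from general knowledge and described without a test of the list. Of 23 measured ATF4 target genes outside the transporter families, 20 rose and 2 fell under HGF, beside 29.8% and 32.8% of all genes, with a median peak difference of 0.90 beside -0.08 over all genes. The counts were the same over 8 to 32 h, when 27.2% of all genes rose and 27.9% fell. Under IL-6 16 rose and 6 fell (median 0.37), beside 23.4% and 31.7% of all genes. With both factors 17 rose and 5 fell (median 0.65), beside 31.3% and 36.7%. In the hours from 8 to 32, 18 of the 23 were lower under IL-6 than under HGF and 2 were higher, beside 27.7% and 22.4% of all genes. HGF raised Psat1, an enzyme of serine synthesis, by 0.94 at 16 h (SE 0.06, adjusted p = 5.71e-22) and asparagine synthetase, Asns, by 0.90 at 16 h (SE 0.06, adjusted p = 1.76e-16). Fgf21, a liver hormone on the same list, stood at -2.63 under HGF, -2.40 under IL-6 and -3.54 under both at 24 h.

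Of 19 cytosolic aminoacyl-tRNA synthetases, which load amino acids onto tRNA, 13 rose and 6 fell under HGF (all genes: 29.8% and 32.8%), and 16 rose and 2 fell over 8 to 32 h (all genes: 27.2% and 27.9%). Rars, which loads arginine, rose by 0.83 at 16 h, and Wars, which loads tryptophan, rose by 1.21 at 8 h under IL-6 (SE 0.07, adjusted p = 2.05e-23). Of 18 carriers of mitochondria and lysosomes outside the families, 7 rose and 8 fell under HGF, and 3 rose and 12 fell under IL-6, where 23.4% of all genes rose and 31.7% fell. Slc25a15, the mitochondrial ornithine carrier, fell by 0.81 at 8 h under both factors.

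Of 15 enzymes of glutamine, glutamate and asparagine, 7 rose and 7 fell under HGF, where 62.6% of all genes were called, and 8 rose and 6 fell under IL-6, where 55.1% were. Alanine aminotransferase, Gpt, stood at -1.47 under HGF and -1.42 under IL-6 at 24 h, and glutamine synthetase, Glul, rose by 0.99 at 8 h under IL-6 (SE 0.08, adjusted p = 1.87e-20). Of 31 genes of amino acid sensing upstream of mTORC1, 13 rose and 15 fell under HGF (all genes: 29.8% and 32.8%), where the leucine sensor family member Sesn3 fell by 1.15 at 16 h. Of 13 genes of glutathione synthesis and cystine use, 3 rose and 6 fell under HGF, 9 of 13 against 62.6% of all genes. Glutathione synthetase, Gss, fell by 0.75 at 16 h and the regulatory subunit Gclm by 0.70 at 16 h, the hour at which the cystine carrier Slc7a11 was 1.37 higher.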

How the data were processed

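RNA of the 60 cultures was labelled with biotin (One-Cycle protocol) and hybridised to Affymetrix mouse arrays, per the labels' protocols. Log2 intensities were deposited for 45101 probe sets and used unaltered; the authors' method of summarising and scaling was not given in the sources used here. The series text speaks of triplicates, whereas each group has 2 arrays, except 4 at 0 h. Among 1770 array pairs none were identical. Precision is limited by this number of arrays.

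By the platform's probe table, 34958 probe sets carry 1 gene symbol, 932 several and 9211 are not listed, and the last 2 kinds were left out. The filter was the 40th percentile of an array (4.28 to 4.40) on at least 2 arrays. limma 3.58.1 in R 4.3.3 fitted 1 mean per group over all arrays (eBayes with a mean-variance trend). Each of 8 comparisons was a moderated F-test over matched hours, adjusted by Benjamini-Hochberg with a threshold of 0.05. A gene's direction is its sign where it differs most. The fit was tested on simulated data. Promoter windows come from RefSeq, GRCm38.p6.

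The members, gene lists, tests and settings were chosen with earlier results of these data known. Named were, per comparison, up to 8 largest rises and falls past the test that did not overlap the reference arrays at that hour, a fixed list of known carriers, and the 3 genes of each list with the smallest adjusted p. The alternatives were quantile normalization, the mean over probe sets, a 60th percentile filter, no filter, the compared arrays alone, 8 to 32 h alone, a replicate block, a variance without trend, a robust variance, and each array left out in turn. Over 378 pairs of groups, same-numbered arrays had residual correlations from -0.27 to 0.25, so the numbers were not taken as pairs.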

Additional observations from a re-analysis of the deposited data

Results flagged for a closer look

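For the following carriers the effect of HGF differed with and without IL-6, by the interaction in the fit over all groups (limma, moderated F-test over 7 hours, 18 of 49 genes, against 33.6% of all genes). Below additivity were Slc7a11 (-0.85 at 16 h), Slc7a1 (-0.84 at 16 h), Slc7a5 (-0.77 at 16 h), Slc7a3 (-0.70 at 2 h), Slc7a6 (-0.44 at 24 h), Slc38a9 (-0.39 at 8 h), Slc38a10 (-0.31 at 4 h), Slc16a10 (-0.28 at 24 h) and Slc38a2 (-0.24 at 16 h). Above it were Slc1a5 (0.86 at 24 h), Slc7a7 (0.65 at 4 h), Slc6a12 (0.55 at 0.5 h), Slc7a2 (0.55 at 32 h), Slc6a9 (0.53 at 2 h), Slc3a2 (0.51 at 4 h), Slc38a3 (0.49 at 2 h), Slc6a13 (0.44 at 16 h) and Slc38a4 (0.25 at 24 h). The values at 0.5 to 4 h use unstimulated arrays of another labelling class, whose part was not tested. Those at 8 to 32 h use unstimulated arrays with bioB at 8.13 to 8.4, against 5.38 to 7.05 on stimulated arrays. The part of bioB was not tested either. As the mean over probe sets Slc38a10 turned to 0.10 and was not called (adjusted p = 0.134), so no direction is given for it. Under that setting the calls of Slc38a9 (-0.08), Slc16a10 (-0.19), Slc1a5 (0.29), Slc38a3 (0.21) and Slc7a2 (0.40) were also lost.

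At 0 h, replicate 2 of Slc3a1 read 7.14 while the 3 other arrays read 6.99 to 7.0. It is the single gene of 49 with an array so far from the rest of the 4, where chance alone gives about 1 in 20.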

How the results depend on the processing

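The counts of genes called stayed within 1.5 times under the alternatives run, except the interaction over 8 to 32 h with the mean over probe sets (7 in place of 12). Over 0.5 to 32 h, leaving out 1 array at a time gave 27 to 31 for HGF, 23 to 28 for IL-6, 29 to 32 for the combination, 15 to 20 for the combination against HGF, 19 to 24 against IL-6, 22 to 27 for IL-6 against HGF, 15 to 19 for the interaction and 32 to 36 for culture time. Over 8 to 32 h the ranges were 25 to 29, 18 to 22, 26 to 29, 12 to 17, 13 to 20, 21 to 25, 8 to 14 and 26 to 33, in the same order. With the replicate number as a block the counts over 0.5 to 32 h were 31, 27, 31, 19, 23, 26, 18 and 34. The numbers are not known to pair the cultures. Slc38a10 changed direction with the mean over probe sets, to -0.05 under IL-6 at 4 h and to 0.10 in the interaction at 4 h. Of 126 pairs of a gene and a comparison, 97 kept their call under every setting run, 22 lost it under some alternative setting and 24 without 1 array. Slc38a9 at 8 h and Slc16a10 at 24 h in the interaction, and Slc43a1 in IL-6 against HGF, were among the calls lost. Probes of dim genes (Slc1a2, Slc7a3, Slc1a5) lie near the filter, and the 2 arrays of a group limit what can be told apart.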
